A study of Mus musculus with 16 samples.

Results

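Contacts between promoters that lie more than 500 kb apart on one chromosome were described in mouse liver across the day. A pair of HindIII restriction fragments belonged to this set if both fragments were baits, meaning that each stood in the bait column of any of the 4 interaction lists, and if the midpoints of the fragments were more than 500 kb apart. The 4 lists together held 247177 different pairs on 18165 baits, 38020 of these pairs joined baits of one chromosome, and 4356 of them passed the distance limit. The 4356 long promoter pairs used 4387 baits, 24.2% of all baits. All 4387 bait fragments were bounded by HindIII sites in the mm9 assembly, and 4375 of them held the start of an annotated gene. Among the listed pairs, the choice used distance and bait status only. The lists themselves hold only pairs with a score of at least 5. Every chosen pair had thus reached this score at some timepoint, and the shares below apply to such pairs.

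The interactions came from Promoter Capture Hi-C, which ligates DNA ends that lie close together in the nucleus, enriches the ligation products of promoter fragments with RNA baits and sequences them. Male wild-type C57BL/6 mice of 8 weeks were kept under 12 h of light and 12 h of dark for 2 weeks, with food ad libitum. Their livers were then collected at Zeitgeber times ZT0, ZT6, ZT12 and ZT18, counted in hours from lights on. Each timepoint had 3 pools (A, B and C), each of 2 livers. With a second lane for pool A, the 4 timepoints gave 16 samples. The authors merged the pools before calling interactions, so each timepoint had 1 list and no replicate, and no test between timepoints was possible. The mice carried no transgene, and whole liver was used, so hepatocytes and the other liver cells could not be told apart. Contact data hold no expression values, so marker genes could not be used to check the tissue.

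Each listed pair carries a CHiCAGO score, which grows as a contact exceeds what the distance between the fragments and the technical noise of the baits would give. The lists start at a score of 5, and a pair missing from a list is given here as not listed. Such a pair may have had a score below 5 or no reads, but the lists also differed in how some baits were entered. The score is on a transformed scale, and differences between scores are given rather than folds. The lists held 146262 (ZT0), 154775 (ZT6), 151529 (ZT12) and 151347 (ZT18) pairs. The study's own summary places the totals of ZT6, ZT12 and ZT18 under ZT18, ZT6 and ZT12, so which list belongs to which of these 3 timepoints is not settled, and the values below follow the labels. Shares are given with 95% Wilson intervals, which cover counting error only, because pairs that share a bait are not independent.

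Promoters meet most often within topologically associating domains, which are usually shorter than a megabase. Contacts over larger distances can join genes of one compartment, genes bound by Polycomb proteins, or genes of one cluster such as the histone genes, which gather at the histone locus body. In the liver, the core clock activates and represses genes in a daily rhythm through proteins such as BMAL1 and PER1 and through clock-controlled factors such as DBP.

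The promoter sequences of 5 genes stand for the pairs that lead the results below. The windows run from 250 bases before to 50 bases from the annotated gene start in the mm9 assembly, 5′ to 3′ on the strand of the gene. Capitals mark TATAAA and CCAAT, read on either strand, so TTTATA and ATTGG are also in capitals. Hist1h2ag (chr13:22134769-22135068, minus strand) and Hist1h2ae (chr13:23663040-23663339, minus strand) encode histone H2A and form the pair with the highest score of all. Tdo2 (chr3:81780075-81780374, minus strand), which encodes tryptophan 2,3-dioxygenase of the liver, and Fgg (chr3:82811531-82811830, plus strand), which encodes the gamma chain of fibrinogen, form the highest pair of the hepatocyte genes. Dbp (chr7:52960208-52960507, plus strand), a clock-controlled transcription factor, has the most long promoter pairs of the clock genes described below.
Hist1h2ag: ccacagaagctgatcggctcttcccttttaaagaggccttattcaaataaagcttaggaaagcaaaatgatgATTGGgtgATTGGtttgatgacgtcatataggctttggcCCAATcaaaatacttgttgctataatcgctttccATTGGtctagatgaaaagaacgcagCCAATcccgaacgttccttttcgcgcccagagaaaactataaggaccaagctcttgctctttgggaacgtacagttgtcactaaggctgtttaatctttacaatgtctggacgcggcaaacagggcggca
Hist1h2ae: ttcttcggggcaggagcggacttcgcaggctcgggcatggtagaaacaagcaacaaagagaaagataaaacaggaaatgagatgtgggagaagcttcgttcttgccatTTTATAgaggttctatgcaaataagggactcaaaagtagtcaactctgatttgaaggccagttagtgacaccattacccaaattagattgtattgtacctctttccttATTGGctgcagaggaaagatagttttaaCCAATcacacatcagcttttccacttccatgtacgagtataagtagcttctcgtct
Tdo2: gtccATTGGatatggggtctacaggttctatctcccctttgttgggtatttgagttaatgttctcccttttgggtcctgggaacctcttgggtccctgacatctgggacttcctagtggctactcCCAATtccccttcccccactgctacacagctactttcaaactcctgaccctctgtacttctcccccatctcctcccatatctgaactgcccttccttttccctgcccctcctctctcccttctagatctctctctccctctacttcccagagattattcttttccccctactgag
Fgg: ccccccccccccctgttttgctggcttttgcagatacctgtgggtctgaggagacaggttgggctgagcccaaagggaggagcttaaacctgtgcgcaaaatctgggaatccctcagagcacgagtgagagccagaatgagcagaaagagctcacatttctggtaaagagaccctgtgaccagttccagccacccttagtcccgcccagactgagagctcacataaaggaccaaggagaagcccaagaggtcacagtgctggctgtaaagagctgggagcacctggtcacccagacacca
Dbp: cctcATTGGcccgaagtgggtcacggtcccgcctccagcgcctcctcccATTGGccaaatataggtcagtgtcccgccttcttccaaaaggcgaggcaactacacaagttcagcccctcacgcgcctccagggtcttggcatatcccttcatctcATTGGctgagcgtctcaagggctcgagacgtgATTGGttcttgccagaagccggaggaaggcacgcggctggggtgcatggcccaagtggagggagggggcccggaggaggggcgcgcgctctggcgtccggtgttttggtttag

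The Hist1h2ag window held CCAAT 5 times, and the Hist1h2ae window held it 2 times with 1 TATAAA. Among 44 histone gene promoters on baits with long promoter pairs, 37 (84.1%) held CCAAT and 26 (59.1%) held TATAAA, against 37.1% and 11.3% of 16859 protein-coding promoters on all baits. TATAAA was also frequent in the promoters of keratin baits (72.7%) and olfactory receptor baits (44.2%) with long promoter pairs, whereas CCAAT was in 36.4% of the keratin promoters. The 4412 protein-coding promoters on baits with a long promoter pair did not stand apart in this way, with 37.9% and 11.4%. The E-box CACGTG, the site of BMAL1 and CLOCK, was in 0 of the 44 histone windows, in 8.32% of the windows on baits with long promoter pairs and in 8.54% of all windows. The Dbp window did not hold CACGTG. Baits with a long promoter pair had a median of 17 CG dinucleotides per window (quartiles 7 and 26), against 14 (5 and 24) for the other baits. These matches describe the letters of the windows only.

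Long promoter pairs were a small part of every list. The ZT0 list had 1835, the ZT6 list 2068, the ZT12 list 1936 and the ZT18 list 2020, which is 1.25%, 1.34%, 1.28% and 1.33% of the lists. The median score was 6.69, 6.64, 6.71 and 6.73 in the same order. The order of the counts followed the order of list lengths except that ZT18 stood above ZT12. Among all pairs over 500 kb, those joining baits made up 20.2% (19.4 to 21.1) in the list of ZT0, 19.98% (19.2 to 20.8) in that of ZT6, 22.4% (21.6 to 23.3) in that of ZT12 and 22.8% (21.9 to 23.7) in that of ZT18. The share was thus higher in the lists of ZT12 and ZT18 than in those of ZT0 and ZT6, with intervals that did not overlap, but with 1 list per timepoint this compares lists and not times of day.

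Most long promoter pairs were listed once. Of the 4356, 572 were listed at all 4 timepoints (13.1%, 12.2 to 14.2), against a background of 32.5% of all pairs. With each end accepted within 10 kb, 25.8% of the long promoter pairs and 69.2% of all pairs on one chromosome were listed at all 4, and a minimum score of 10 gave 20.4% for the long promoter pairs. Another 481 were listed at 3 timepoints and 825 at 2, and 2478 (56.9%) at 1 only, against 35.2% of all pairs. Promoter contacts with other fragments over 500 kb were nearer to them than promoter pairs of 500 kb or less. At all 4 were 16.6% (15.97 to 17.2) of 15105 and 40.1% (39.6 to 40.6) of 33664, in this order. At 1 timepoint only were 53.1% and 28.2%. The highest score of a pair went with the number of lists. This link is partly built in, since both come from the same scores and the list minimum of 5. Of 1613 long promoter pairs with a highest score from 5 to below 6, 2 were listed at all 4 timepoints, and of 117 with a score of 20 or more, 112 were (95.7%, 90.4 to 98.2). At a highest score from 10 to below 15, the share was 48.3% (43.8 to 52.9) for long promoter pairs, 58.5% (56.2 to 60.8) for contacts of promoters with other fragments over 500 kb and 83.5% (82.6 to 84.4) for shorter promoter pairs. A score of 10 or more at any timepoint was reached by 683 long promoter pairs (15.7%), below the 21.5% of all pairs.

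**Figure D1:**
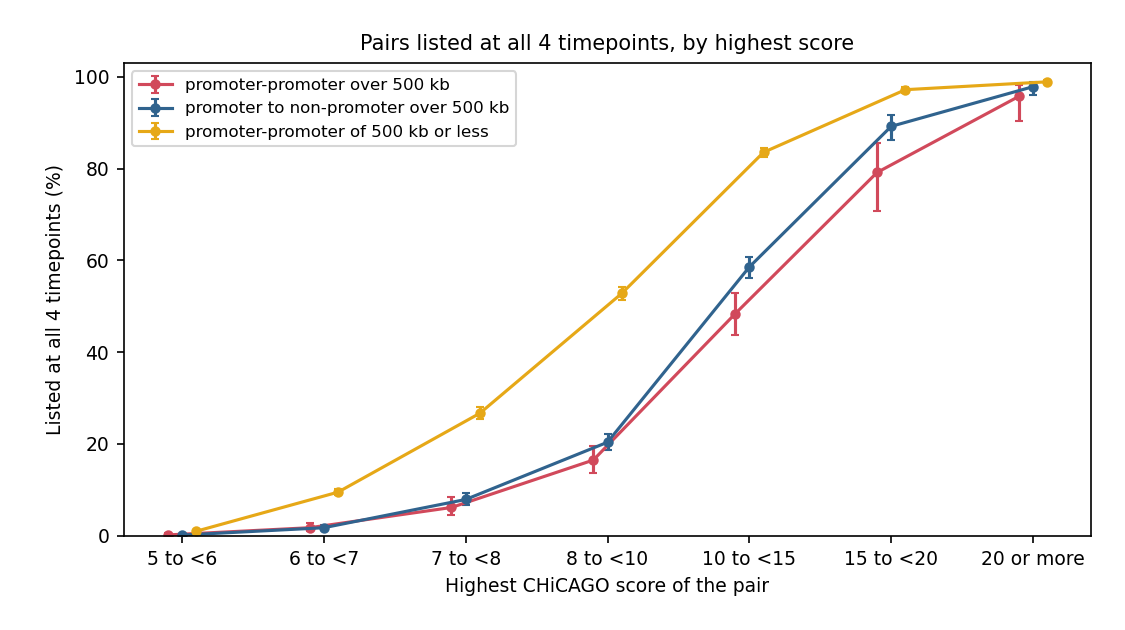
Share of pairs listed at all 4 timepoints (vertical axis, percent, with 95% Wilson intervals) by the highest CHiCAGO score of the pair (horizontal axis) for long promoter pairs, promoter contacts with other fragments over 500 kb, and shorter promoter pairs. All 3 curves rise with the score, and between scores of 6 and 20 both long classes lie below the shorter promoter pairs. Both axes come from the same scores, so part of the rise is built in.

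The set thinned out fast with distance. The median distance was 696 kb (quartiles 573 and 961 kb), 1024 pairs (23.5%) spanned more than 1 Mb, 174 more than 2 Mb and 33 more than 5 Mb. Of all bait pairs that lie 250 to 500 kb apart on a chromosome, 13.5% were listed at 1 timepoint or more. This share was 2.93% at 500 to 1000 kb, 0.439% at 1000 to 2000 kb and 0.0297% at 2000 to 5000 kb. Of the 33 pairs over 5 Mb, 29 were listed at 1 timepoint and 1 at all 4. The limit cut through a continuous range. Just outside it lay Nefl with Adamdec1 at 499.9 kb, listed at ZT18 only with a score of 7.49, and just inside it Papd5 with Cyld at 500.1 kb, with 6.25 at ZT0 and 5.06 at ZT6.

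The pairs gathered in a few places. Linked through shared baits they formed 937 groups, 422 of which were a single pair, and the 10 largest groups held 1093 pairs (25.1%). Of the 4387 baits, 2629 (59.9%) had 1 long promoter pair, 320 had 5 or more and 65 had 10 or more. Baits with 5 or more lay in dense promoter regions, with a median of 26 other baits within 500 kb (quartiles 13 and 35) against 13 (7 and 22) for all baits. Their median number of listed contacts of any kind was 31 against 9, a count that includes the long promoter pairs by which they were chosen. Per 100 baits, chromosome 13 had 68.8 long promoter pairs and chromosome 7 had 41.6, whereas the X chromosome had 11.01. The largest group, with 285 of the 466 pairs of chromosome 13, was the histone gene cluster. The second group, with 180 pairs, 18 of them listed at all 4 timepoints, spanned 33671 kb of chromosome 7 and joined separate places through pairs over 5 Mb, such as Apoe with Fam71e1 over 31468 kb, listed at ZT18 only with 5.63. Without the pairs over 5 Mb, a setting chosen after the values were seen, 97 pairs remained around Rpl18/Sphk2 (21 pairs) and Dbp (14) and 71 around Irf2bp1 and Tomm40 (12 each). The third was the keratin cluster of chromosome 11 with 134 pairs (133 without those over 5 Mb), and the fourth lay around Leng9 (19 pairs) and Cnot3 (16) on chromosome 7 with 123 pairs. The groups from the fifth to the tenth held 51 to 76 pairs each, around Oaz1, Zfp941, Acap1, Olfr1076, Mterfd1/Ptdss1 and Mast3. Persistence differed among the groups, with 112 of 285 pairs (39.3%, 33.8 to 45.1) listed at all 4 timepoints around the histone genes, 19 of 73 (26.0%, 17.3 to 37.1) around Zfp941 and 0 of 51 (0 to 7.005%) around Mast3. Their median highest scores fell in the same order, at 10.03, 7.44 and 5.83. Persistence and highest score come from the same scores and are linked by construction.

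The histone genes of the Hist1 cluster carried the strongest long promoter pairs. These genes encode the core histones and linker histone H1 that package newly replicated DNA, and they are expressed mainly in S phase. On chromosome 13 of mm9 their baits formed one block of 8 baits at chr13:21807357-22135014 and one of 20 baits at chr13:23609299-24027277, separated by 1474 kb with 11 other baits. Of the 160 possible pairs between the blocks, 123 (76.9%) were listed, against 0.901% of all bait pairs 0.5 to 3 Mb apart. Of the 123, 78 (63.4%) were listed at all 4 timepoints. The number listed was 101 at ZT0, then 107, 96 and 100 at ZT6, ZT12 and ZT18, with median scores of 19.4, 19.9, 20.1 and 20.9. Both the numbers and the median scores were thus close at the 4 timepoints.

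The highest score of the whole set joined Hist1h2ag/Hist1h4i (chr13:22132679-22135014) with Hist1h2ae (chr13:23658486-23663244) over 1527 kb, and was 64.79 (ZT0), 86.47 (ZT6), 75.92 (ZT12) and 79.09 (ZT18). Hist1h2ai/Hist1h2bl with Hist1h4d, at 1865 kb, had 70.35, 68.82, 63.07 and 66.77 in the same order. The first of these pairs had its lowest score at ZT0, and the second had its highest there. Within the first block, Hist1h2ai/Hist1h2bl was paired with 19 of the 20 baits of the second block, all 19 at every timepoint, and Hist1h2ag/Hist1h4i with 19, of which 17 were listed at every timepoint. The neighbouring baits Hist1h4j and Hist1h4k were each paired with 10 of the 20, 2 and 1 of them at all 4 timepoints. In the second block, the Hist1h2ac/Hist1h2bc bait was paired with all 8 baits of the first block at every timepoint. Hist1h2aa/Hist1h2ba, which encode testis variants of H2A and H2B and lie at the far end of the block, were paired with none of the 8, whereas the testis H1 gene Hist1h1t was paired with 5.

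**Figure D2:**
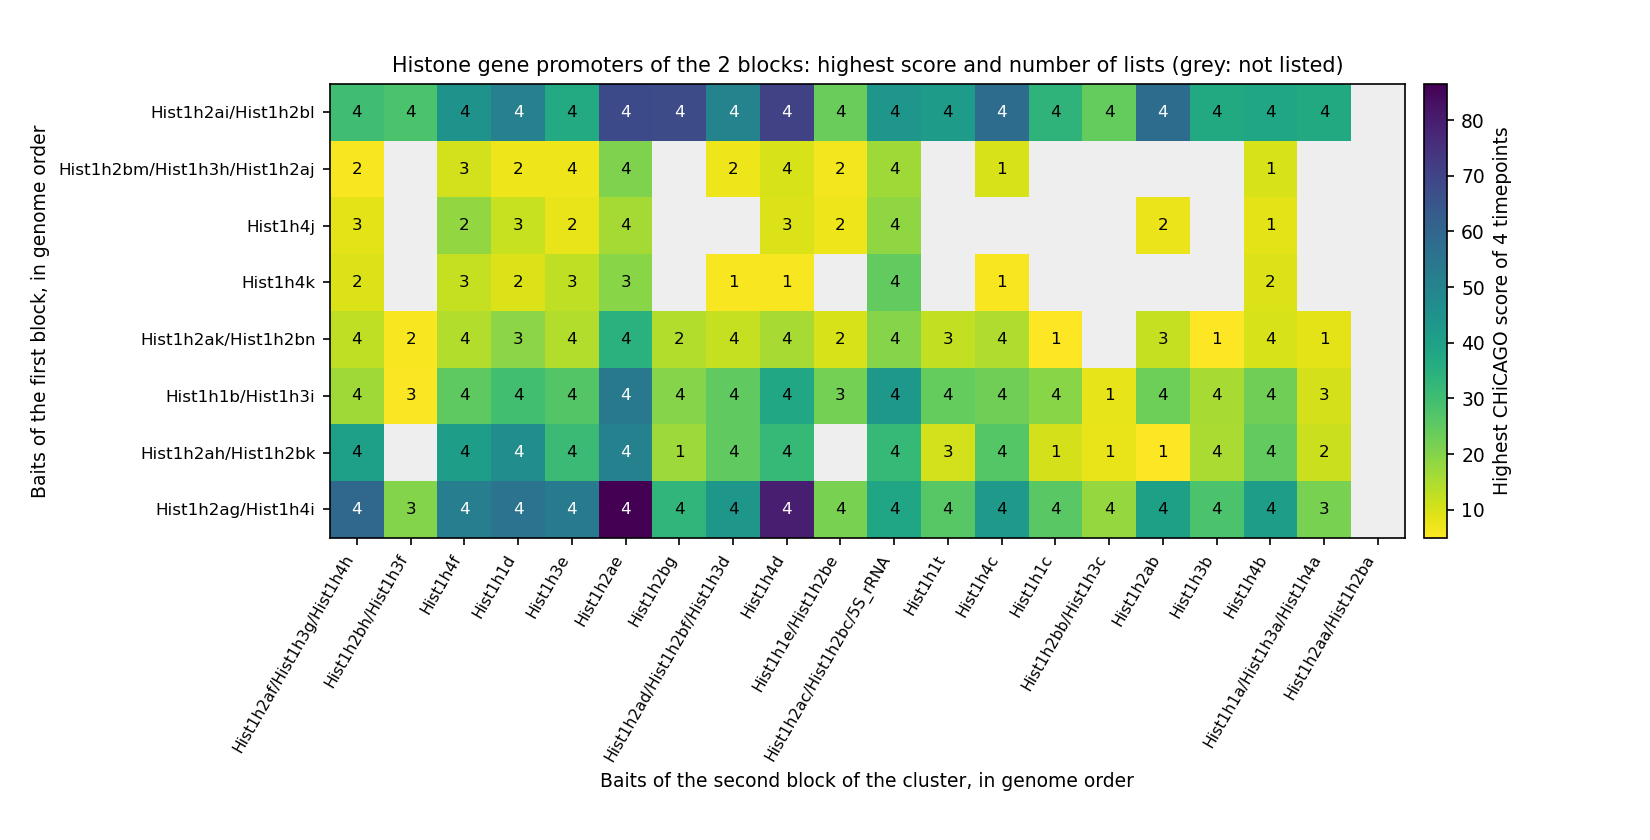
Highest CHiCAGO score of 4 timepoints (colour) and number of timepoints at which the pair was listed (digit) for each of the 160 pairs between the 8 baits of the first histone block (rows) and the 20 of the second (columns), with grey for pairs not listed. The rows of Hist1h2ai/Hist1h2bl and Hist1h2ag/Hist1h4i are filled at 19 of 20 columns, and the column of Hist1h2aa/Hist1h2ba is empty.

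Histone genes resemble each other in sequence, which can affect how reads are placed. An alignment of at least 200 bases at 90% identity or more between the 2 fragments was found for 62 of the 160 possible histone pairs, and 50 of these 62 (80.6%) were listed, 31 at all 4 timepoints. Of the 98 pairs without such an alignment, 73 (74.5%) were listed, 47 at all 4. Shorter alignments among these 73 reached 169 bases, and histone fragments of one block were not compared with each other. The part that read placement had in these pairs was not tested. For Hist1h2ag/Hist1h4i with Hist1h2ae the longest alignment was 448 bases at 95.3% identity. In the whole set 68 pairs (1.56%) had such an alignment, 50 of them histone pairs. Baits without histone genes in this region were also paired across it. The 5 other baits inside the first block were listed in 40 of 100 possible pairs with the histone baits of the second block, and the 8 inside the second block in 7 of 64 with the histone baits of the first. Of the 11 baits between the blocks, 5 held gene starts of vomeronasal receptors. These 5 were in 0 of 107 possible pairs with histone baits. Among all bait pairs 0.5 to 3 Mb apart 0.901% were listed, and 107 pairs are too few to tell 0 from this share. All 11 baits together were in 24 of 195 possible pairs (12.3%). Between the blocks lay also the zinc finger gene Zfp322a, with 20 long promoter pairs, and Abt1, an activator of basal transcription, with 15.

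Genes of one family at both ends were more frequent than among possible pairs at 0.5 to 3 Mb, which were not matched for distance. Of the long promoter pairs 76.5% lay at 500 to 1000 kb, against 113766 of the 477248 possible pairs of all baits. Of 2273 pairs with a family name at both ends, taken as the letters of the gene symbol before the first digit, 376 (16.5%, 15.1 to 18.1) shared it, against 4.81% of 203308 possible pairs at 0.5 to 3 Mb and 13.6% (13.1 to 14.1) of the listed promoter pairs of 500 kb or less. The share moved with the setting, to 9.43% when 1 contact was counted per pair of 100 kb windows and to 33.2% at a score of at least 10. Of the 376, 101 (26.9%) were listed at all 4 timepoints. Olfactory receptors gave 152 of these pairs, histones 123, keratins 52 and Zfp zinc finger genes 30, and no other family gave more than 2.

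Keratins and keratin-associated proteins, the structural proteins of epithelia and hair, were listed often but seldom at every timepoint. On the 82 baits with these genes, 94 of 332 possible pairs at 0.5 to 3 Mb (28.3%) were listed. The listed pairs had a median distance of 621 kb, and of all bait pairs 2.93% were listed at 500 to 1000 kb. Of the 94, 5 (5.32%) were listed at all 4 timepoints, beside 13.1% of all long promoter pairs and 63.4% of the histone pairs. Their median highest score was 6.125, against 6.58 for the whole set and 19.96 for the histone pairs. The ZT0 list had 47 of the keratin pairs and the lists of ZT6, ZT12 and ZT18 had 35, 24 and 38, with median scores of 5.69, 6.29, 6.04 and 6.06. The highest was Krtap2-4 with Krt19, a keratin of bile duct cells, at 534 kb, with 12.71 at ZT0, 8.96 at ZT12 and 6.46 at ZT18, and not listed at ZT6. Krt12 had 16 long promoter pairs, the most of this group. Olfactory receptor genes, which are silent in most tissues, had 152 of 8336 possible pairs listed (1.82%), 13 of them (8.55%) at all 4 timepoints. Olfr347 with Olfr368, at 596 kb, had 14.84 (ZT0), 22.83 (ZT6), 8.29 (ZT12) and 8.15 (ZT18), and was thus highest at ZT6. Zfp genes had 28 of 354 possible pairs listed (7.91%). Zfp184 with Zfp322a, both in the region of the histone cluster, were 1426 kb apart and had 11.27, 15.24, 14.07 and 12.48.

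**Figure D3:**
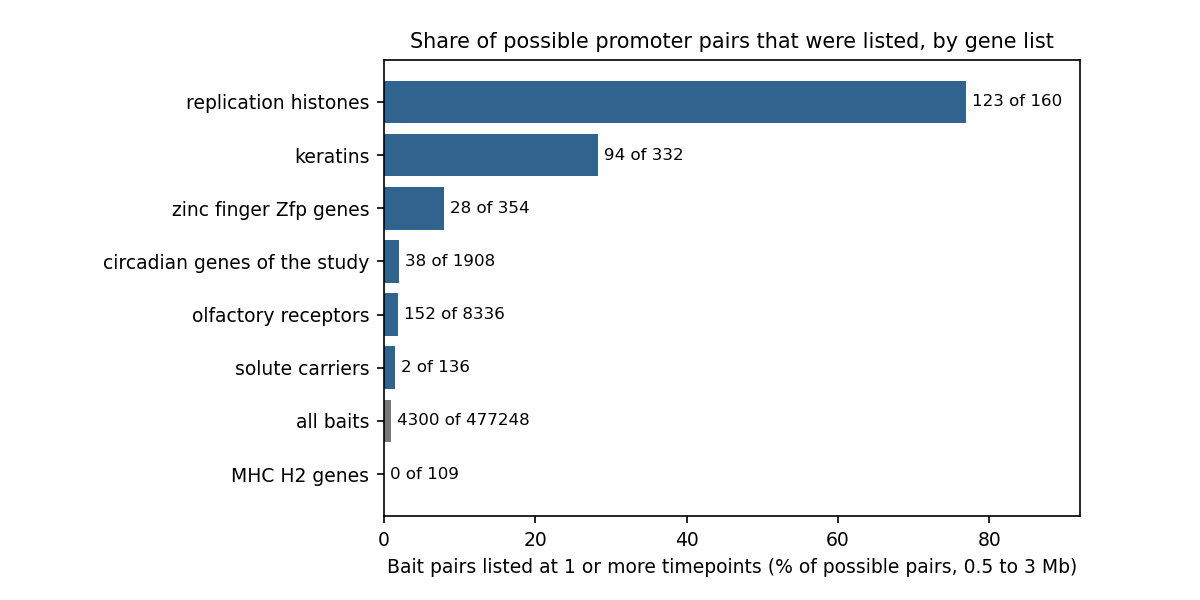
Pairs listed at 1 timepoint or more as a percentage of all possible pairs of baits 0.5 to 3 Mb apart (horizontal axis) for gene lists with at least 100 such pairs, with the listed and possible numbers beside each bar. Histone genes stand at 123 of 160, keratins at 94 of 332, and all baits at 4300 of 477248. The gene lists were not matched for distance.

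For 3 other families no long promoter pair between their own members was listed, but the possible pairs were few. There were 109 between H2 genes of the major histocompatibility complex (0%, interval 0 to 3.40%), 32 between serpins (0 to 10.7%) and 9 between phase II conjugation enzymes (0 to 29.9%), and each interval includes the 0.901% of all bait pairs. Hox genes had none of their own at this distance since no 2 Hox baits lay 0.5 to 3 Mb apart. With other genes, 9 of their 35 baits were in 15 pairs. This share of baits, 25.7%, was near the 24.2% of all baits with a long promoter pair. The Igf2bp3 promoter (chr6:49162551-49169452), which encodes an RNA-binding protein of fetal tissue, was paired with 6 baits of the Hoxa cluster over 2976 to 3032 kb. With Hoxa11 it had 18.23 at ZT0, 13.28 at ZT6 and 6.89 at ZT18 and was not listed at ZT12, and with Hoxa6 it had 6.70 at ZT0, 9.61 at ZT12 and 17.05 at ZT18 and was not listed at ZT6. None of the 6 was listed at all 4 timepoints, beside 13.1% of all long promoter pairs, and 6 pairs are few. The cluster as a whole was paired with Igf2bp3 at each timepoint. Among other developmental transcription factors, Irx3 with Irx5, 556 kb apart, had 8.42, 10.45, 11.12 and 13.71 from ZT0 to ZT18.

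Few pairs of hepatocyte genes lay 0.5 to 3 Mb apart. Of 6 such pairs among the 65 hepatocyte baits, 4 were listed, against 0.901% of all bait pairs 0.5 to 3 Mb apart. Of the 4, 3 joined Tdo2 with the fibrinogen genes on chromosome 3. These 3 share the Tdo2 bait and lead to fragments close to each other, so they are not independent, and 6 pairs are too few to describe hepatocyte genes. Fibrinogen is the clotting protein that the liver secretes, and its 3 chains are encoded by Fga, Fgb and Fgg side by side. The bait of Tdo2 (chr3:81777237-81787616) also holds the start of Accn5. With Fgg (chr3:82811427-82812207), 1029 kb away, it had 8.10, 14.58, 14.78 and 11.81 from ZT0 to ZT18. With Fgb, 1073 kb away, it had 9.09, 8.00, 8.84 and 13.31. The first pair was lowest at ZT0 and the second highest at ZT18. With Fga, between them, it was listed at ZT12 only, with 9.53. Plrg1, beyond Fgb, was paired with Tdo2 at ZT12 (8.97) and ZT18 (5.43). No alignment at 90% identity was found between the fragments of Tdo2 and those of the fibrinogen genes. The fourth pair joined Foxa3, a transcription factor of the liver, with Apoe, an apolipoprotein, over 676 kb, with 7.38 at ZT12 and 5.54 at ZT18. Foxa3 was also paired with Tomm40, the neighbour of Apoe, at all 4 timepoints (7.89, 9.48, 8.37 and 11.81). Cyp2e1, which metabolises ethanol, had 8 long promoter pairs, none above 8.04. None of the 8 was listed at all 4 timepoints, beside 13.1% of all long promoter pairs, and 8 pairs are few.

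Other strong pairs joined genes without a shared family. Neto2, which encodes an auxiliary subunit of kainate receptors, with Abcc12, a transporter gene, 876 kb away on chromosome 8, had 26.02 (ZT0), 34.29 (ZT6), 40.36 (ZT12) and 29.26 (ZT18). Neto2 was further paired with Lonp2, a peroxisomal protease gene, at all 4 timepoints (15.07, 12.79, 9.36 and 9.01). The score with Abcc12 was highest at ZT12, and that with Lonp2 at ZT0. Emx2, a homeobox gene, with the uncharacterised E330013P04Rik, 690 kb away, had 32.52, 37.26, 27.38 and 34.27. Kbtbd2 with Ppm1k, which encodes a phosphatase of branched-chain amino acid breakdown, had 25.52, 34.92, 35.27 and 28.59 at 739 kb. Aco1, a cytosolic aconitase that also binds iron-responsive RNA, with Aptx, a DNA repair gene, had 29.05, 22.58, 20.21 and 34.05 at 560 kb, highest at ZT18 and lowest at ZT12. Cenpk/Ppwd1 with Srek1ip1 at 561 kb stayed between 28.26 and 29.49 at the 4 timepoints, whereas Snrpd2 with Tomm40 at 562 kb had 12.18 at ZT0 and 14.63 at ZT12 but 27.88 at ZT6 and 27.46 at ZT18. Osr2 with Rgs22, at 845 kb, had 21.53, 17.76, 26.74 and 14.87. The remaining ones of the 12 highest, Fzd8 with Gm5819, Magi2 with a U6 gene and Tmem18 with Gm15691, had scores from 15.07 to 30.93 and were also listed at all 4 timepoints.

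**Figure D4:**
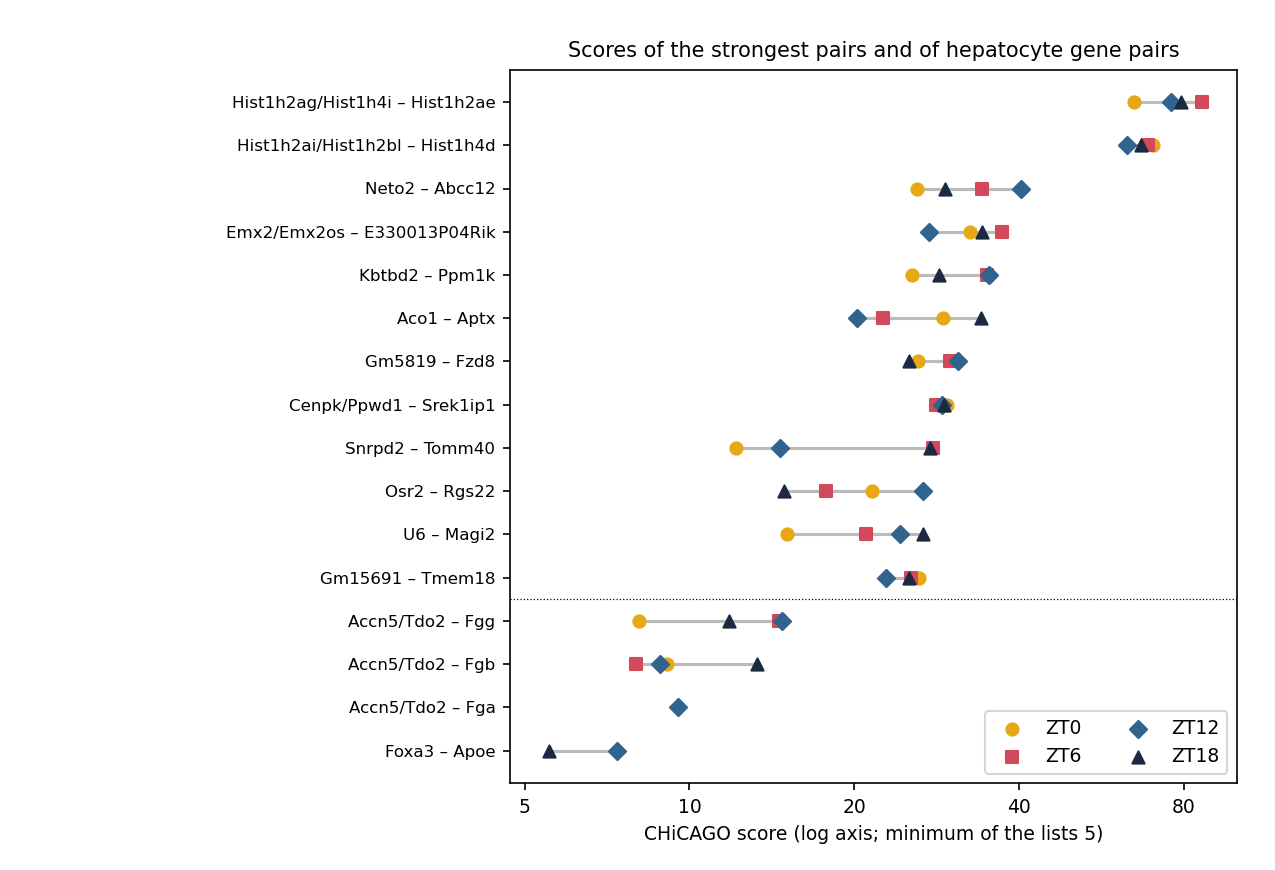
CHiCAGO score (horizontal log axis) at ZT0, ZT6, ZT12 and ZT18 of the 12 highest-scoring long promoter pairs, 1 per pair of 1 Mb windows, and of the 4 hepatocyte gene pairs below the dotted line, with a grey line from the lowest to the highest score. All 12 strongest pairs have 4 points, and the 2 histone pairs lie above 60 at every timepoint.

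The longest pair listed at all 4 timepoints joined Tcea1 with Hjurp/Trpm8 over 85325 kb on chromosome 1, with 10.24 (ZT0), 5.13 (ZT6), 18.07 (ZT12) and 10.30 (ZT18). It was the only pair over 5 Mb listed at every timepoint, and no alignment at 90% identity was found between its fragments. Med17, a Mediator subunit gene, with Chordc1, at 3011 kb on chromosome 9, had 12.70, 9.94, 21.28 and 13.42. Chordc1 had 10 long promoter pairs, 7 of which led to Med17 and to baits that end within 78.6 kb of the start of the Med17 fragment. Fstl5 with Gm10291, at 2842 kb, had 22.65, 22.62, 25.47 and 21.81, with 1 bait between them.

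The clock genes entered the set through Dbp more than through any other gene. Their list holds genes of the core clock loop and clock-controlled transcription factors such as Dbp, Tef and Hlf. On 7 of 17 baits of this list (41.2%, against 24.2% of all baits) there were 26 long promoter pairs, and 17 baits are few. None of the 26 had a gene of the list at both ends, but the list had 0 possible pairs of its own at 0.5 to 3 Mb. Of the 26, 14 belonged to Dbp (chr7:52956740-52963554), all with promoters on the same side, 549 to 1208 kb away, in a dense stretch of chromosome 7. From ZT0 to ZT18 the lists held 6, 9, 10 and 7 of the 14, and 3 were listed at all 4 timepoints. With Flt3l/Rpl13a it had 9.44, 6.99, 13.23 and 6.50, with Akt1s1/Tbc1d17 it had 5.84, 5.27, 9.13 and 10.70, and with Med25/Ptov1, which holds a Mediator subunit gene, it had 8.72, 7.49, 7.54 and 7.14. The highest score, 14.51 with Rras/Scaf1, was at ZT6, with 9.25 at ZT12 and no listing at ZT0 and ZT18. The highest scores of these pairs thus fell at different timepoints. The bait of Rpl18 and Sphk2, next to Dbp and not a bait of the clock list, had 21 long promoter pairs into the same stretch, 8, 12, 12 and 14 of them at ZT0, ZT6, ZT12 and ZT18, and all 14 partners of Dbp were among them.

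**Figure D5:**
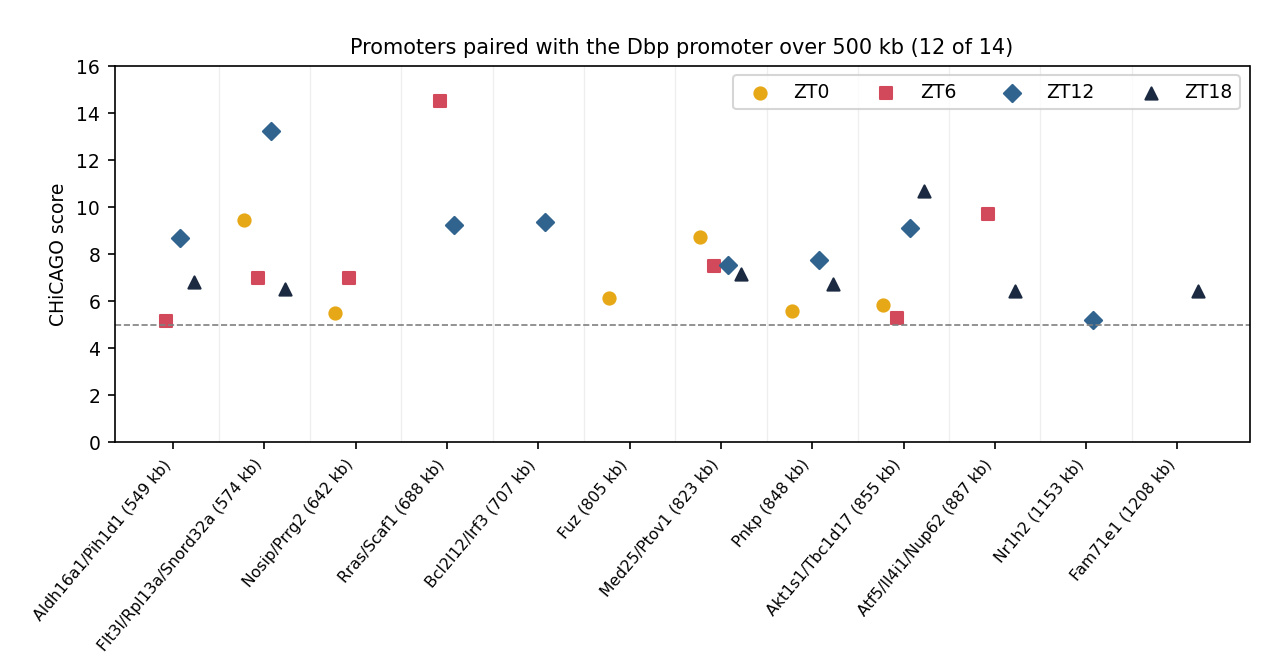
CHiCAGO score (vertical axis, dashed line at the list minimum of 5) of the Dbp promoter with 12 of its 14 partners over 500 kb, ordered by distance in kb, with 1 symbol for each timepoint at which the pair was listed. Flt3l/Rpl13a, Med25/Ptov1 and Akt1s1/Tbc1d17 have all 4 symbols, and the highest point is Rras/Scaf1 at ZT6.

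The other clock gene pairs were weaker except for Bhlhe40, a repressor of the clock, with Setmar at 596 kb, which had 9.07, 10.36, 10.72 and 11.44 and was the only one outside Dbp listed at all 4 timepoints. Per1 and Per3, repressors of BMAL1 and CLOCK, had 4 pairs each, with highest scores of 6.97 and 6.32. Cry1 with Pwp1 was listed at ZT6 only (5.81), Nr1d2 with Ngly1/Oxsm at ZT6 only (5.58), and Npas2 with Map4k4 at ZT18 only (5.05).

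Promoters of the genes that the study called circadian from RNA-seq of the same livers were slightly more frequent on baits with long promoter pairs (7.75%, 6.995 to 8.58) than on all baits (6.15%, 5.81 to 6.51). At both ends they were in 39 of the 4356 pairs (0.895%, 0.656 to 1.22). Of 1908 possible pairs at 0.5 to 3 Mb, 38 were listed (1.99%, against 0.901% of all bait pairs, not matched for distance). Of the 39, 7 were listed at all 4 timepoints (17.9%, 8.98 to 32.7), an interval that includes the 13.1% of all long promoter pairs. Of 36 pairs with a single peak time at each end, 6 (16.7%, 7.87 to 31.9) had the same peak time of the 4, and 16 (44.4%, 29.5 to 60.4) were both diurnal or both nocturnal. Among 1877 possible pairs of such baits at 0.5 to 3 Mb the shares were 27.7% and 48.5%, both inside these intervals. The highest was Aco1 with Dnaja1, a heat shock co-chaperone gene, at 580 kb, with 11.43 (ZT0), 9.14 (ZT6), 16.56 (ZT12) and 16.54 (ZT18). Tmem37 with Insig2, a regulator of cholesterol synthesis, at 1259 kb, was listed at ZT6 (12.25) and ZT12 (5.20). Txnrd3 with Zxdc had 8.63, 7.96, 11.84 and 5.99. Pairs with a promoter that peaks at a given timepoint were listed there about as often as the whole set, of which 42.1%, 47.5%, 44.4% and 46.4% were listed from ZT0 to ZT18. Of 143 pairs with a promoter peaking at ZT0, 55, 74, 65 and 76 were listed from ZT0 to ZT18. For 222 with a promoter peaking at ZT12, 94, 107, 113 and 108 were listed at the 4 timepoints. For 207 with a promoter peaking at ZT6 the numbers were 76, 101, 102 and 90, and for 118 with one peaking at ZT18 they were 45, 52, 59 and 49. The 95% intervals of all 16 shares included that of the whole set at the same timepoint. Read in the order of the study's summary, the highest number would fall on ZT6 for the promoters peaking at ZT6, at ZT12 and at ZT18.

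Listing at a single timepoint was spread over the day. ZT0 alone listed 542 pairs (12.4%, against 8.2% of all pairs), ZT6 alone 696 (15.98%, against 9.95%), ZT12 alone 579 (13.3%, against 8.56%) and ZT18 alone 661 (15.2%, against 8.5%). All 4 shares exceeded those of all pairs. Listing at any single timepoint was nearly as frequent for promoter contacts with other fragments over 500 kb (53.1%) as for long promoter pairs (56.9%). The light-phase combination of ZT0 and ZT6 alone had 158 pairs (3.63%, against 3.08%) and the combination of ZT12 and ZT18 had 173 (3.97%, against 3.5%), both near the background. In the order of the study's summary the combinations of light and dark would hold 2.36% (against 2.47%) and 2.85% (against 2.93%). Among the 572 listed at all 4, the highest score fell on ZT0 in 25.3% (21.96 to 29.1), on ZT6 in 24.3% (20.96 to 28.0), on ZT12 in 22.4% (19.2 to 25.97) and on ZT18 in 27.6% (24.1 to 31.4). The shares among all pairs listed at all 4 were 22.0%, 26.1%, 25.6% and 26.0%, each inside these intervals. The scores of the 572 ranged over a median of 5.28 between their lowest and highest timepoint (quartiles 3.25 and 7.58), against 3.43 (2.20 and 5.18) for all pairs listed at all 4. The 572 also had higher scores, with medians of 9.65 to 9.94 at the 4 timepoints against 8.75 to 8.98. The part that the score level had in the wider range was not tested.

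The strongest pairs of a single timepoint were at ZT6. Lamb2, a laminin gene, was paired with Rbm6, an RNA-binding protein gene, over 606 kb on chromosome 9 with 21.94 at ZT6 and was not listed at the other timepoints. The 7 long promoter pairs of Lamb2 were all listed at ZT6 only, with scores of 6.53 to 21.94, and Rbm6 itself was paired with Usp19 at all 4 timepoints (6.61, 11.12, 6.55 and 5.31). Of 320 baits with 5 or more long promoter pairs, Lamb2 and Ranbp1/Trmt2a, with 6 at ZT12, were the only ones whose pairs all fell at 1 timepoint. The listing of these baits differed between the lists. At ZT6 Lamb2 had 28 contacts of any distance, 24 of them with other baits and entered from the side of the partner, while at ZT0, ZT12 and ZT18 it had 6, 9 and 12, none with a bait. Ranbp1/Trmt2a likewise had 9 contacts with baits at ZT12 and 0 at the other timepoints. Such a change was rare. Of 1241 baits with 10 or more bait partners in a list, 5 had none in another. The part that the listing had in these pairs was not tested. At ZT0 only, the highest score was 12.52 (Arhgap30 with Kcnj10), at ZT12 only 13.04 (Tipin, a replication fork gene, with Ptplad1) and at ZT18 only 11.71 (2610019F03Rik with Cln8). Of the pairs listed at ZT0 and ZT6 alone, Prss16 with Abt1 had the highest score, with 15.70 and 11.73 over 1411 kb, and of those at ZT12 and ZT18 alone it was Trim27 with Hist1h2af/Hist1h3g/Hist1h4h, with 6.72 and 13.40 over 2351 kb. Both belonged to the group of linked baits around the histone cluster.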

How the data were processed

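Promoter Capture Hi-C of mouse liver at 4 timepoints was used as deposited. The authors merged 3 pools of each timepoint, processed reads with HiCUP, called interactions with CHiCAGO on the mm9 build and deposited a list of fragment pairs with a CHiCAGO score of at least 5. Read depth is not given in the lists. Pairs were joined across lists irrespective of the column order, and the distance was taken between fragment midpoints. Samples were grouped by the labelled timepoint. A summary table of the study gives the list totals of ZT6, ZT12 and ZT18 under ZT18, ZT6 and ZT12, and the labels were followed. Genes were assigned where a GENCODE gene start of the same build lay in a fragment, with at most 3 symbols per bait. Fragments were aligned with blastn 2.17.0. Possible pairs were all pairs of baits on a chromosome in the given distance range. Shares carry Wilson intervals (scipy). Scripts were tested on simulated lists. The pairs of 1 locus are not reported here by name. Without replicates there was no test. The pairs, gene lists and comparisons were chosen with earlier results of these data known. Named pairs were drawn from the 12 highest scores (1 per pair of 1 Mb windows), the 5 longest listed at all 4 timepoints and the highest per timepoint, combination and gene list. They were also drawn from the core clock pairs, the largest groups and those nearest to 500 kb. Not all of these pairs and gene lists are described, and the clustered protocadherins are among those left out. Partners of Tdo2, Igf2bp3, Neto2, Chordc1, Foxa3, Cyp2e1, Rpl18, Rbm6 and Lamb2, and Irx3 with its own partners, were described after their values were seen.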

Additional observations from a re-analysis of the deposited data

How the results depend on the processing

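No paired analysis was possible because each timepoint has 1 list made from merged pools. With 4 lists and no replicates, a count was taken as moved beyond a factor of 1.5, and a share or median outside its 95% interval. A higher score minimum gave fewer pairs. A minimum of 7 left 1858 (832, 914, 863 and 908 at ZT0, ZT6, ZT12 and ZT18), 16.1% were listed at all 4 timepoints and 22.4% shared a family. A minimum of 10 left 683 (345, 345, 370 and 367), with 20.4% at all 4, 20.2% of the pairs over 500 kb joining baits, a median distance of 732 kb, 33.2% sharing a family and 1.46% circadian at both ends. At this minimum ZT12 had the most pairs and at the others ZT6. With a limit of 1 Mb there were 1024 (400, 473, 442 and 500), 29.0% of the pairs joined baits, the median was 1519 kb, 24.8% shared a family and 1.37% were circadian at both ends. Counting 1 contact per pair of 100 kb windows left 2569 (1195, 1316, 1210 and 1288), with 17.4% at all 4, 43.1% joining baits, a median of 709 kb and 9.43% sharing a family. Without the group of linked baits around the histone genes, 11.3% were at all 4, 21.2% joined baits, the median was 677 kb and 12.2% shared a family. Without pairs whose fragments resemble each other, 14.7% shared a family. With baits of the same timepoint, 21.3% joined baits. Accepting each end within 10 kb, 25.8% were listed at all 4. The gap between fragments and equal numbers of top-scoring pairs moved no value beyond these limits. The other order of the lists was applied to the counts per timepoint, which stayed within the factor of 1.5. In it, the counts of ZT6, ZT12 and ZT18 would be 1936, 2020 and 2068.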

Other observations

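Long promoter pairs also joined Rpl18/Sphk2 with Flt3l/Rpl13a, both with a ribosomal protein gene, in the dense stretch of chromosome 7 that holds Dbp. Over 587 kb this pair had 6.63, 8.87, 6.71 and 7.16 from ZT0 to ZT18. Of the cytochrome P450 genes, Cyp2b10, an enzyme of drug metabolism, was paired with Cyp2b19 at ZT12 only (7.73) and with Cyp2g1 at ZT18 only (5.50).

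Lists differed in which baits they held. Of the 4356 long promoter pairs, 3308 joined baits that stood in the bait column of all 4 lists, and 546 of these (16.5%) were listed at all 4 timepoints.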
